A study of Saccharomyces cerevisiae with 3 samples.

Results

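The cytosolic Hsp70 system of budding yeast, Saccharomyces cerevisiae, was followed in cells exposed to arsenite. Its 10 genes were chosen by name and role: the Hsp70 chaperones SSA1, SSA2, SSA3 and SSA4, the Hsp110 proteins SSE1 and SSE2, the Hsp40 (J-domain) proteins YDJ1 and SIS1, and the nucleotide exchange factors FES1 and SNL1. These genes and the lists below were chosen with earlier results of these data known. All 10 were measured, by 20 of the 11138 named spots, and they stand beside 5539 named genes in all. On each of 3 two-colour arrays, RNA of wild-type cells kept for 1 h in 0.2 mM arsenite, the trivalent form of arsenic, was hybridised directly against RNA of untreated wild-type cells. The labels name neither the strain nor its mating type, nor do they tell separate cultures from repeat hybridisations. P-values thus measure only spread between arrays, which may be technical. The limma test used below took a gene's spread mostly from all genes together (10.8 prior degrees of freedom). A gene's own 3 arrays gave 2 degrees of freedom, so a limma p-value or interval does not measure their agreement alone. Each value is a log2 ratio, arsenite over untreated, with the array centred on its median gene, so that 0 stands for the median gene and 1 for a 2-fold rise.

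An Hsp70 holds exposed hydrophobic stretches of unfolded proteins in a cycle driven by ATP. J-domain proteins deliver clients and trigger ATP hydrolysis, which closes the chaperone on its client, and nucleotide exchange factors replace ADP by ATP, which releases the client. In yeast SSA1 and SSA2 are made in unstressed cells, although SSA1 also responds to heat, whereas SSA3 and SSA4 are known as the stress-inducible copies; the heat shock factor Hsf1 drives many of these genes, and Hsp70 itself restrains Hsf1. Arsenite binds protein thiols and is known to disturb the folding of newly made proteins.

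On replicates 1 and 2 Cy5 marked the treated RNA, but replicate 3 had the dyes exchanged, so its sign was changed; as deposited it correlated with replicate 1 at r = -0.782 over all spots. The direction is likely but not stated: the ratio was taken to be Cy5 over Cy3, and the opposite reading would turn all signs and ranks. The base of the deposited logarithm was read as 2; under a natural logarithm the 4.14-fold rise of SSA4 given below would be 7.77-fold. Before centring, the median genes of the 3 turned arrays lay at -0.10, 0.52 and -0.14. Among cell type markers, 4 of 6 genes specific to a cells fell, and 0 rose (also 0 at an unadjusted limma p under 0.05), beside 18.1% and 14.5% of all genes, with means from -1.25 to -0.50. Among the 4, AGA2 lost its call without replicate 1 (-0.50, adjusted p = 0.324) and without centring (-0.63, adjusted p = 0.112). Of 4 alpha-cell genes, STE3 rose (1.70) and MF(ALPHA)2 fell (-0.62, a call lost without replicate 1, adjusted p = 0.186, without replicate 2, when it had -0.39 and adjusted p = 0.138, and without centring, adjusted p = 0.200). The part of these markers in the values below was not tested, and a ratio does not show which of them a culture expressed.

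The stress-inducible Hsp70 genes SSA3 and SSA4, both Hsp110 genes and the J-protein gene SIS1 rose. The constitutive Hsp70 genes, YDJ1 and both small exchange factors did not pass the test. By limma with adjustment over all genes, 5 of 10 members rose and 0 fell (also 0 at an unadjusted p under 0.05), beside 14.5% of all genes that rose and 18.1% that fell. Above 0 on all 3 arrays were 6 of the 10, beside 29.2% of all genes. The median of the 10 was 0.49, against 0.01 over all genes. The count of members that rose was 2 without replicate 1 (7.44% of all genes), 3 without replicate 3 (15.3%) and 2 without centring (10.9%). SSA4 and SSE1 passed in each of these fits. For the genes reported here, the adjusted p in these fits followed the size of the mean alone. A call lost in them thus does not show that a gene's own arrays disagreed.

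**Figure D1:**
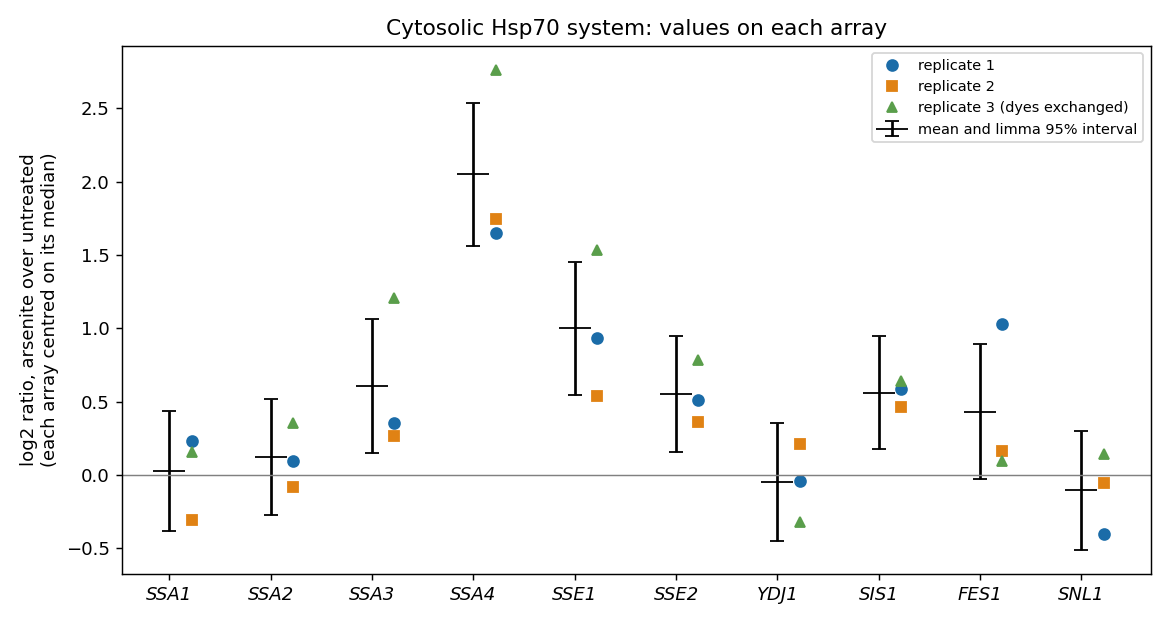
Log2 ratios, arsenite over untreated (vertical axis), for the 10 genes of the cytosolic Hsp70 system, with 1 symbol per array, the mean as a horizontal dash and the limma 95% interval as a bar. SSA4 lies above 1.6 on all 3 arrays, the bars of SSA1, SSA2, YDJ1, FES1 and SNL1 span 0, and replicate 3 is the highest array for each of the 5 genes that rose.

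SSA4 had the largest rise of the 10. Its log2 ratios were 1.65, 1.74 and 2.76 on replicates 1, 2 and 3. The treated cells thus held more SSA4 transcript on every array, with replicate 3 clearly above the other two. The mean was 2.05 ± 0.62 (SD, n = 3), a 4.14-fold rise (limma adjusted p = 1.82e-05), and 98.8% of all named genes had a lower mean. SSA4 passed under all 11 alternative settings, with means from 1.70 to 2.25.

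SSA3, the other stress-inducible Hsp70 gene, had 0.35, 0.26 and 1.20 on replicates 1, 2 and 3. All were above 0, but replicate 3 carried most of the rise. The mean was 0.61 ± 0.52, a 1.52-fold rise just past the test (limma adjusted p = 0.0441). Without replicate 3 the mean was 0.31 (adjusted p = 0.323), without replicate 1 the call was lost although the mean was 0.73 (adjusted p = 0.0982), as it was without centring, with a mean of 0.70 (adjusted p = 0.0680). SSA3 lay below SSA4 on each array.

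SSA1, a gene for a constitutive Hsp70, had 0.23, -0.31 and 0.15 on replicates 1, 2 and 3. The arrays fell on both sides of 0, around a mean of 0.03 ± 0.29 with a limma 95% interval from -0.38 to 0.43 (adjusted p = 0.930). SSA2, its near-identical partner, had 0.10, -0.08 and 0.35. Its mean was 0.12 ± 0.22, with an interval from -0.27 to 0.52 (adjusted p = 0.651). Neither interval reaches a 2-fold change in either direction, though smaller changes remain within both. The 4 SSA genes are close in sequence and may share hybridisation; the files do not describe the probes, so part of one gene's signal could come from another.

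The inducible and constitutive Hsp70s were then set against each other on each array. The mean of SSA3 and SSA4 exceeded that of SSA1 and SSA2 by 0.83, 1.20 and 1.73 on replicates 1, 2 and 3. The difference of log2 ratios was 1.25 ± 0.45, in the same direction on 3 of 3 arrays. An exact two-sided sign-flip permutation test gave p = 0.25, the smallest that 3 arrays allow (0.3125 after adjustment over the 10 pairs compared). Most of this came from SSA4, which exceeded SSA3 by 1.30, 1.48 and 1.56. The gap between SSA4 and SSA3 varied less between arrays (1.45 ± 0.13) than either gene did alone. SSA4 exceeded SSA1 by 2.02 ± 0.60 and SSA2 by 1.93 ± 0.44. SSA3 exceeded SSA1 by 0.58 ± 0.47 and SSA2 by 0.48 ± 0.32, and all these differences had 1 direction on 3 of 3 arrays. SSA2 and SSA1 differed by 0.10 ± 0.20, with 1 array against the other two.

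**Figure D2:**
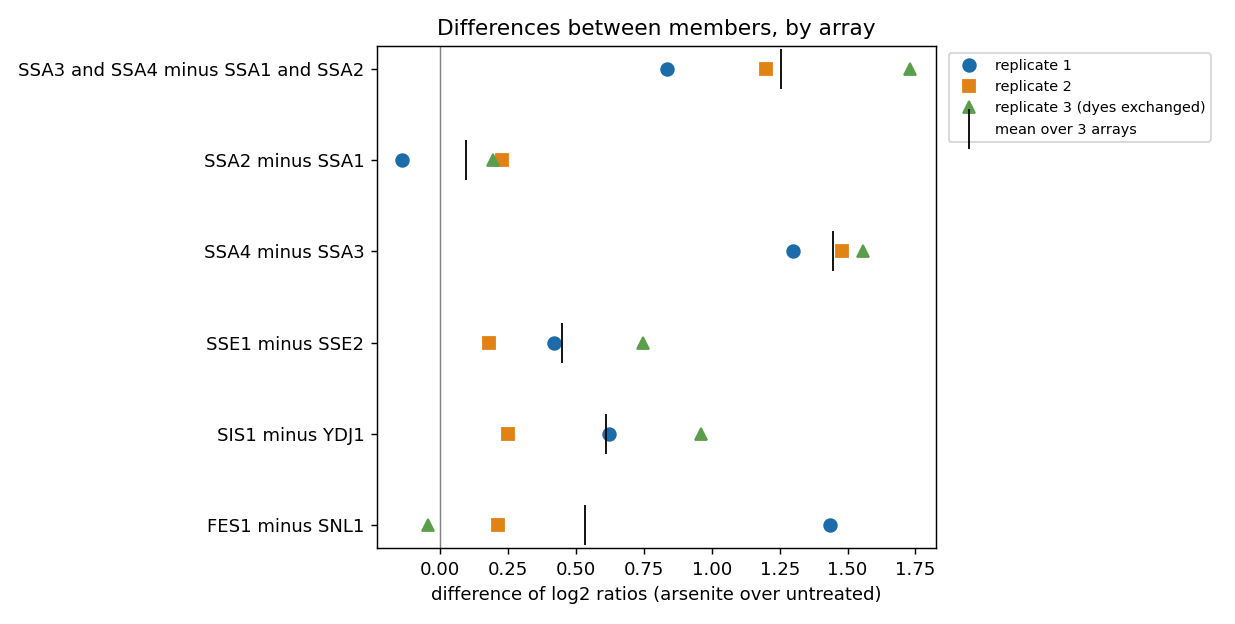
Differences between log2 ratios of members (horizontal axis), with 1 symbol per array and the mean as a vertical dash. SSA4 minus SSA3 lies between 1.30 and 1.56 on all arrays, whereas SSA2 minus SSA1 and FES1 minus SNL1 fall on both sides of 0.

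The Hsp110 proteins are distant relatives of Hsp70 that act as its main exchange factors in the cytosol and can hold unfolded proteins themselves. SSE1, the more abundant form in unstressed cells, had 0.93, 0.54 and 1.53 on replicates 1, 2 and 3. Its transcript was higher in treated cells on every array, most on replicate 3 and least on replicate 2. The mean was 1.00 ± 0.50, a 2.00-fold rise (limma adjusted p = 0.00249) that passed under all 11 alternatives, and 94.7% of genes lay lower. SSE2, the paralog known as heat-inducible, had 0.51, 0.36 and 0.78. It rose 1.47-fold (0.55 ± 0.21, adjusted p = 0.0347), a call lost without replicate 1 (mean 0.57, adjusted p = 0.238), without replicate 3 (mean 0.43, adjusted p = 0.140) and without centring (mean 0.64, adjusted p = 0.0992).

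SSE1 exceeded SSE2 by 0.42, 0.18 and 0.75 on replicates 1, 2 and 3. Within the Hsp110 pair the gene known for its high basal expression thus had the higher log2 ratio on 3 of 3 arrays, which is the reverse of the order within the Hsp70 genes. The mean difference was 0.45 ± 0.29 (exact sign-flip p = 0.25). This sign-flip test cannot go below 0.25 with 3 arrays. Since the probes are not described, part of the signal of SSE1 or SSE2 could come from the other.

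The major J-domain proteins of the cytosol parted. SIS1, an essential J protein that helps Hsp70 and the disaggregase act on aggregates, had 0.58, 0.46 and 0.64. These were the closest 3 values of any member, all above 0. SIS1 rose 1.47-fold (0.56 ± 0.09, limma adjusted p = 0.0279), and 86.4% of genes lay lower. Its call was lost without replicate 1 (adjusted p = 0.265), without replicate 3 (0.0684) and without centring (0.0935), although the mean stayed between 0.43 and 0.65 in all 11 alternatives. The mean was 0.55 without replicate 1 and 0.52 without replicate 3.

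YDJ1, the farnesylated general J protein, had -0.04, 0.21 and -0.32 on replicates 1, 2 and 3. The mean of -0.05 ± 0.27 has an interval from -0.45 to 0.35 (adjusted p = 0.863), and its sign changed without centring, when the mean was 0.04. SIS1 exceeded YDJ1 by 0.62, 0.25 and 0.96, a difference of 0.61 ± 0.35 on 3 of 3 arrays (exact sign-flip p = 0.25).

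FES1, the soluble exchange factor that helps hand misfolded Hsp70 clients to degradation, had 1.03, 0.16 and 0.10. Replicate 1 stood apart from the other two, with a 2-fold rise there and almost none elsewhere. The mean was 0.43 ± 0.52 with an interval from -0.03 to 0.89 (adjusted p = 0.144). It was 0.13 without replicate 1 (adjusted p = 0.865) and 0.59 without replicate 3, when it passed (adjusted p = 0.0347). Both spots of FES1 showed the same pattern, since they differed by no more than 0.17 on any array.

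SNL1, an exchange factor with a BAG domain anchored in the endoplasmic reticulum membrane, had -0.40, -0.05 and 0.14. These values lay on both sides of 0, and the mean of -0.11 ± 0.28 (interval -0.51 to 0.30) did not pass (adjusted p = 0.701). FES1 and SNL1 differed by 1.43 on replicate 1 but by 0.21 and -0.04 on the others.

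The level of the members also differed between arrays. On replicate 3, the only array with exchanged dyes, 7 of the 10 had their highest value, among them all 5 that rose, and on replicate 2 6 of the 10 had their lowest. The matching shares over all genes were not counted, so this order is not shown to be particular to the members. An array effect and a dye effect cannot be told apart here. With a dye term in the fit, when 17.4% of all genes rose, the same 5 members passed, with SSA4 at 2.23, SSE1 at 1.13, SSA3 at 0.76, SSE2 at 0.61 and SIS1 at 0.58. That fit gives replicate 3 the weight of replicates 1 and 2 together. Genes highest on replicate 3 thus had to get a larger mean, which the adjusted p there followed. That the 5 passed again is therefore no separate support, and it does not part a dye effect from an array effect. The paired spots of a gene differed by at most 0.42 for any member (SSE2 on replicate 1), less than the spread between arrays for SSA3, SSA4, SSE1 and FES1.

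**Figure D3:**
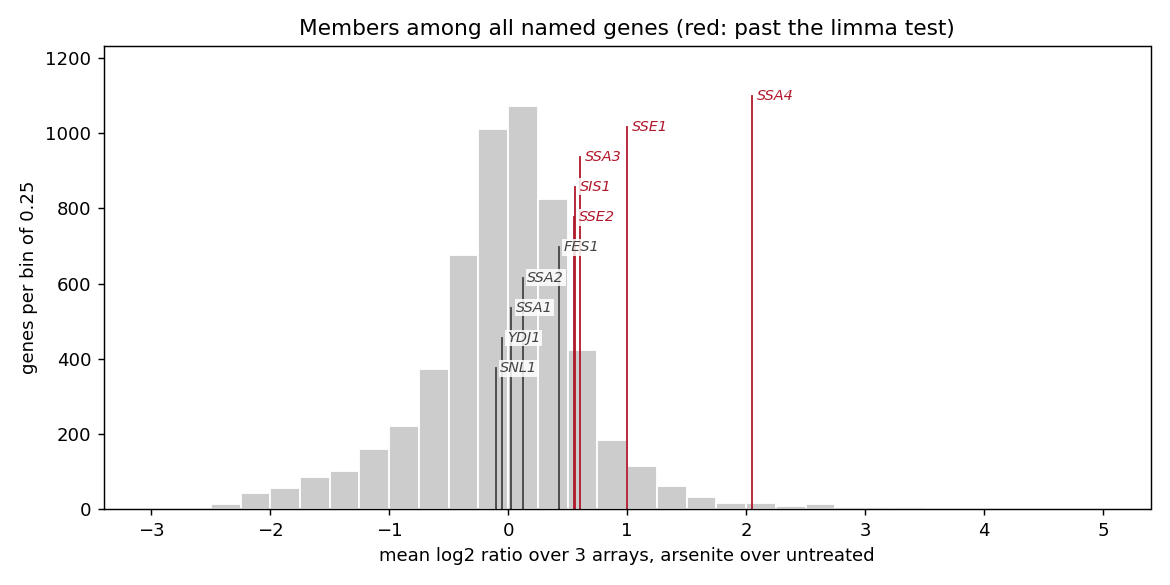
Mean log2 ratios of the 5539 named genes (grey bars, genes per bin of 0.25), with the 10 members as vertical lines whose heights only separate the names. SSA4 lies in the right tail at 2.05, SSE1 at 1.00, and SSA3, SIS1 and SSE2 close together between 0.55 and 0.61, whereas SSA1, SSA2, YDJ1 and SNL1 lie in the central peak.

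In order of mean log2 ratio the genes ran SSA4, SSE1, SSA3, SIS1, SSE2, FES1, SSA2, SSA1, YDJ1 and SNL1. SSA4 was above SSE1 on each of the 3 arrays. From SSA3 to FES1 the means lay between 0.61 and 0.43, less than 1 SD of SSA3 or FES1 apart, and the last 4 lay between 0.12 and -0.11, again within their spread. The 3 genes closest to SSA4 by Euclidean distance over the 3 array values were TSA1, the main cytosolic peroxiredoxin, ZWF1, which opens the pentose phosphate pathway, and AHP1, another peroxiredoxin. TSA1 had 1.79, 1.50 and 2.57 (distance 0.34), ZWF1 2.15, 1.86 and 2.68 (0.53) and AHP1 1.75, 1.34 and 2.32 (0.61).

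The other J-domain proteins facing the cytosol or nucleus, made up a list of 10. By limma 0 rose (also 0 at an unadjusted p under 0.05) and 3 fell, beside 14.5% and 18.1% of all genes, so neither count lies far from the share over all genes. The list median was -0.37. CWC23, a nuclear J protein of spliceosome disassembly, had -1.40, -1.46 and -1.27 and fell by a mean of -1.38 ± 0.10 (adjusted p = 5.99e-05). SWA2, the auxilin of clathrin uncoating, fell by a mean of -0.89 ± 0.17 (adjusted p = 0.00190). DJP1, a J protein of peroxisome formation, fell by a mean of -0.83 ± 0.76 (adjusted p = 0.0201), a call that rested on replicate 2, without which it had -0.40 (adjusted p = 0.117).

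A list of 16 genes held the Hsp70 systems of the ribosome, mitochondria and endoplasmic reticulum. Of these 1 rose and 5 fell, beside 14.5% and 18.1% of all genes, with a median of 0.01. Among those that fell were genes of chaperones that sit at the ribosome and meet nascent chains. SSB2, a ribosome-bound Hsp70, had -1.48, -1.67 and -1.40 (mean -1.52 ± 0.14, adjusted p = 3.16e-05). SSZ1, the Hsp70-like partner in the ribosome-associated complex, had -1.10, -2.48 and -0.73 (mean -1.44 ± 0.92, adjusted p = 0.00128). Replicate 2 set much of that size, since the mean of SSZ1 without it was -0.91 (adjusted p = 0.00103). ZUO1, the J protein of that complex, had a mean of -1.04 ± 0.32 (adjusted p = 0.000918).

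The values that follow were picked out after they were seen. SSB1, the near-identical paralog of SSB2, had 0.39, 0.30 and 0.10 (mean 0.26 ± 0.15, adjusted p = 0.285), above SSB2 on all arrays. As for the SSA genes, the probes are not described, so part of the signal of either gene could come from the other. The gene that rose was MDJ1, the J protein of the mitochondrial matrix (0.87 ± 0.38, adjusted p = 0.00393), and the other 2 that fell were SEC63 (-1.02 ± 0.24, adjusted p = 0.000823) and JEM1 (-0.83 ± 0.50, adjusted p = 0.00819), J proteins of the endoplasmic reticulum. The main Hsp70s of mitochondria and endoplasmic reticulum did not pass: SSC1 had -0.01 ± 0.09 and KAR2 -0.25 ± 0.16 (adjusted p = 0.984 and 0.319).

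Known targets of Hsf1 outside the 10 genes changed in part. Of 17 listed genes MBF1 was not analysed here, and of the 16 measured, 7 rose and 1 fell, beside 14.5% and 18.1% of all genes, with a median of 0.47 against 0.49 for the cytosolic Hsp70 system. HSP104, the disaggregase that works with Hsp70 and J proteins, had 2.51, 1.99 and 2.73 (mean 2.41 ± 0.38, adjusted p = 1.98e-06). BTN2, which sorts misfolded proteins into deposits, had a mean of 2.27 ± 0.27 (adjusted p = 2.04e-06) and HSP26, a small heat shock protein, one of 2.06 ± 0.68 (adjusted p = 2.37e-05). The means of SSA4 and of these 3 genes lay within 1 SD of SSA4 of each other. HSP42, another small heat shock protein and the 1 target that fell (-1.06 ± 0.54, adjusted p = 0.00194), was picked out after its value was seen.

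Hsp90 receives clients from Hsp70 through the bridging protein STI1. Of 6 genes of this handover 2 rose and 1 fell, with a median of 0.35; at 14.5% and 18.1% of all genes, these counts lie near the background. STI1, also in the Hsf1 list, had 0.97, 0.49 and 0.77 (mean 0.74 ± 0.24, adjusted p = 0.00752), a call lost without replicate 1 (adjusted p = 0.179). SBA1, the p23 cochaperone, had 0.87, 0.94 and 1.03 (mean 0.95 ± 0.08, adjusted p = 0.00109). CNS1, an essential cochaperone that binds Hsp70 and Hsp90, had a mean of -0.69 ± 0.16 (adjusted p = 0.0101), a call lost without replicate 1 (0.148) and without centring (0.136). The Hsp90 genes themselves, picked out after their values were seen, did not pass in the reported fit. Inducible HSP82 had 0.47 ± 0.26 (adjusted p = 0.0674) and constitutive HSC82 0.05 ± 0.27 (adjusted p = 0.863). HSP82 did pass with a dye term (0.54, adjusted p = 0.0249) and without replicate 2 (0.60, adjusted p = 0.0205). For this pair too the probes are not described, so part of the signal of either gene could come from the other.

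Among 5 transcription factor genes tied to protein damage and stress, 2 rose, beside 14.5% of all genes. RPN4, the activator of proteasome genes, had 1.41, 1.65 and 1.45 (mean 1.50 ± 0.13, adjusted p = 3.28e-05), and YAP1, the activator of oxidative defence, had 0.78 ± 0.09 (adjusted p = 0.00410). Without replicate 1 the adjusted p of YAP1 was 0.0508. HSF1 had 0.64, 1.00 and -0.02 on replicates 1, 2 and 3 (mean 0.54 ± 0.52, adjusted p = 0.0684), and it passed without replicate 3 (0.82, adjusted p = 0.00222). Its lowest array was replicate 3, on which the members that rose were highest. MSN4 had 0.42 ± 0.31 (adjusted p = 0.112, and 0.0340 without replicate 3) and MSN2, its paralog, -0.16 ± 0.23 (adjusted p = 0.549). These ratios concern transcripts only, and the activity of the factors was not measured.

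**Figure D4:**
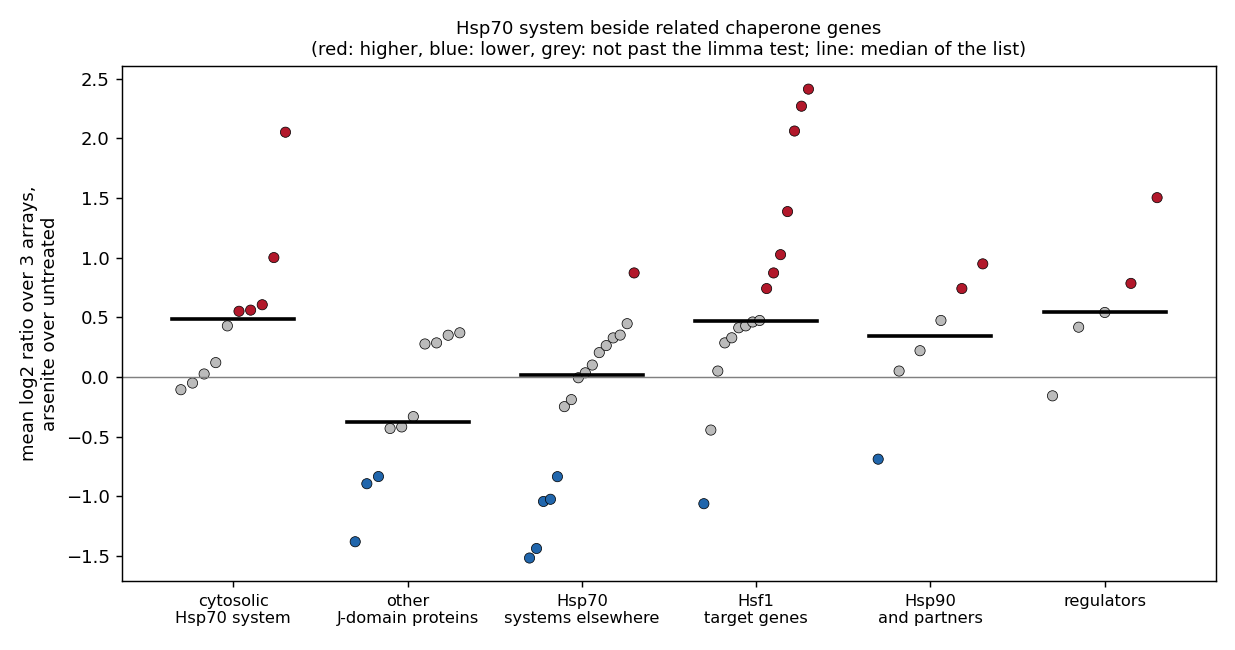
Mean log2 ratios over the 3 arrays (vertical axis), with 1 point per gene, red for genes that rose, blue for genes that fell and grey for genes that did not pass the limma test, and a line at the median of each list. Of 10 points each, the cytosolic Hsp70 system has 5 red and 0 blue, and the other J-domain proteins have 0 red and 3 blue. Over all genes 14.5% rose and 18.1% fell, and the counts of the other J-domain proteins do not lie far from these shares.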

How the data were processed

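The series holds 3 two-colour arrays. The deposited values are 1 log ratio per spot, read as log2, for 13056 spots with 0 missing values; for the base, scanner, background correction and normalization, the sources used here give nothing. Per the labels, dyes were exchanged on replicate 3. Spots were named from the platform annotation (1918 unnamed). Of the IDs behind the 5539 symbols, 5534 matched the RefSeq table of assembly R64. Spots were averaged per gene and array, replicate 3 was multiplied by -1, each array was centred on its median gene, and the mean was tested against 0 with limma 3.58.1 in R 4.3.3 (lmFit, eBayes, two-sided, Benjamini-Hochberg over all genes, threshold 0.05). Differences between members were given an exact sign-flip permutation test over arrays, and 11 alternative settings were tried. The script was tested on simulated data. Figures used Python 3.11.15 and matplotlib 3.10.9.

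Duplicate spots correlated at r = 0.940, 0.927 and 0.937 on replicates 1, 2 and 3, and the SD of a spot was 0.19, 0.22 and 0.20. Precision is limited by the number of arrays, and no intensities were at hand. The members and lists were chosen with earlier results of these data known. Named were all members, up to 3 genes per other list with the largest change past the threshold, all listed regulators and the 3 genes nearest SSA4; other names are said to have been picked afterwards. Sequences were not used here, so a planned search for promoter motifs was not run.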

Additional observations from a re-analysis of the deposited data

How the results depend on the processing

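The alternatives were no centring, centring over all spots or within runs of 400 spots, scaling to a common MAD, a dye term, robust variance moderation, 1 spot per gene and each array left out. SSA4 and SSE1 passed in all 11, and SSA1, SSA2, YDJ1 and SNL1 in none. SSA3 lost its call in 7, SIS1 in 5 and SSE2 in 4, and FES1 gained one in 1. Members that rose, 5 as reported, numbered 2 without centring and 3 with centring within runs, with the first spot alone or with the last spot alone, and ranged from 2 to 5 with an array left out. Genes that fell numbered 1004 as reported and 603 without centring; with an array left out, genes that rose ranged from 412 to 939 and genes that fell from 602 to 1071. Without centring all genes share 1 standard error. With a dye term, without replicate 1 and without replicate 3, the adjusted p of the genes reported here likewise followed the size of the mean alone. Calls lost or gained in these fits therefore do not measure how well a gene's own arrays agree. The reported fit shares this limit in part, since its spread was mostly pooled over genes. There the standard errors of the members ran only from 0.18 for SIS1 (SD 0.09) to 0.23 for SSA4 (SD 0.62). Without replicate 3, FES1 passed on values of 1.03 and 0.16 (mean 0.59), whereas SIS1, with 0.58 and 0.46 (mean 0.52), did not. The inducible minus constitutive Hsp70 difference cannot change with the centring of whole arrays; in the other alternatives run for it, it moved by less than its SD. No paired analysis was possible because the arrays form 1 group, in which each array already compares treated with untreated RNA. Signal over background is unknown.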

Other observations

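The genes next to the members on the chromosomes, named through the RefSeq table, were looked at too. Of 20 neighbours, all measured, 4 rose and 3 fell, with a median of -0.02, beside 14.5% and 18.1% of all genes. The 5 members that rose had 10 of these neighbours, of which 3 rose, beside 14.5% of all genes. LST8, a TORC1 and TORC2 subunit read divergently from SIS1, had 0.71, 0.76 and 0.62 on replicates 1, 2 and 3 (mean 0.70 ± 0.07, limma adjusted p = 0.00821), a call lost without replicate 1 (0.125). NPL4, a Cdc48 cofactor beside SSE2 in tandem, had 0.61 ± 0.11 (adjusted p = 0.0191), and DPC25, which converges on SSE1, had 0.53 ± 0.20 (adjusted p = 0.0406); both calls were lost without replicate 1 (0.238 and 0.378) and without centring (0.0680 and 0.114), and that of DPC25 also without replicate 3 (0.0926). SSA4 rose beside RPS8B, a ribosomal protein gene that fell (-1.06 ± 0.21, adjusted p = 0.000606), while RTT105 on its other side had -0.03 ± 0.10. The other neighbours past the test were POM33 beside SSA2 (0.59 ± 0.22, adjusted p = 0.0259, lost without replicate 1 at 0.347 and without centring at 0.0777), ILS1 beside SSA3 (-1.04 ± 1.12, adjusted p = 0.0210, with -0.46 and adjusted p = 0.119 without replicate 2 and -1.57 without replicate 3) and EXO84 beside FES1 (-0.51 ± 0.18, adjusted p = 0.0454, lost with any array left out, at 0.193, 0.0731 and 0.116 without replicates 1, 2 and 3, and without centring at 0.331). The names here were chosen once the values were known.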
